A study of Mus musculus with 12 samples.

Results

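The suppressors of cytokine signalling (SOCS) are a family of 8 genes in the mouse, Cish and Socs1 to Socs7, and all 8 were found by gene symbol among the 49997 genes counted in these libraries. Their transcripts were measured by poly(A) RNA sequencing of sorted primary thymocytes. The cells were either double-positive (DP) thymocytes, which carry both CD4 and CD8, or the CD4 population that follows them. Each was taken from wild-type (WT) animals and from animals in which Satb1, a chromatin-organising DNA-binding protein of thymocytes, had been deleted by tamoxifen (KO). The 4 groups, DP WT, DP KO, CD4 WT and CD4 KO, held 3 libraries each, and tamoxifen is the treatment named for all 12, the WT libraries included. For the Cre driver, the deleted part of Satb1, the strain, the age, the interval after tamoxifen and the sorting gates nothing is stated in the labels. Replicate numbers equal the batch numbers of the labels.

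SOCS proteins are made in response to cytokines and switch the same signals off. A cytokine brings its receptor chains together, the receptor-bound Janus kinases (JAKs) phosphorylate STAT transcription factors, and STATs then switch on SOCS genes among others. A SOCS protein binds phosphorylated receptor or kinase through its SH2 domain, and its SOCS box recruits a ubiquitin ligase built on elongins and cullin 5. SOCS1 and SOCS3 also hold a short stretch that blocks the kinase itself. In the thymus SOCS1 is known for restraining common gamma chain cytokine and interferon gamma signals, and CISH is a classic STAT5 target.

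Of the 8 members, 4 (Cish, Socs1, Socs3 and Socs4) have an entry in the RefSeq table of promoter sequences on GRCm38.p6, each running from 250 bases before to 50 bases after the annotated start. Both strands of these windows were searched for TTCNNNGAA, the palindromic STAT site, and for GAAANNGAAA, the core of an interferon regulatory factor site. The stretches that hold matches are printed because these 3 members moved most in DP cells after Satb1 deletion, with the matched bases in capitals and each sequence on the strand of its gene. The Cish stretch is chr9:107296654-107296683 (+), the Socs3 stretch chr11:117969501-117969530 (-), and the Socs1 stretch chr16:10785537-10785786 (-), the whole 250 bases before its start.
Cish: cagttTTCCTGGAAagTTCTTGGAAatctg
Socs3: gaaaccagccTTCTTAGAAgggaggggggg
Socs1: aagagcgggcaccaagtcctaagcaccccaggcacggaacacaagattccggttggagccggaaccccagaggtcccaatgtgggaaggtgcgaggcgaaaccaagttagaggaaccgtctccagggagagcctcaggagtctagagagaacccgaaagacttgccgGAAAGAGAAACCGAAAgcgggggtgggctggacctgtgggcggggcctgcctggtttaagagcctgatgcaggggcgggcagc
Cish held 2 copies of TTCNNNGAA, which begin at bases 1 and 12 of the annotated transcript and so lie within annotated exon. Socs3 held 1 copy, beginning 154 bases before the annotated start of its RefSeq entry. The gene annotation used for the counts places Socs3 at chr11:117966079-117970336 (-), so this copy lies inside that span. At least 1 copy was present in 8.3% of the 32851 windows in the table, and at least 2 copies in 0.457%. Socs1 held no TTCNNNGAA but 2 overlapping copies of GAAANNGAAA, beginning 83 and 77 bases before its start; 3.44% of all windows held at least 1 such copy and 0.225% at least 2. The Socs4 window held neither motif. A match describes letters in a window and does not show that a factor binds there.

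The libraries held between 22790504 and 62422640 counted fragments or reads, DP WT replicate 3 being the shallowest, and 3 counts corresponded to between 0.0465 and 0.134 CPM, the normalised read count scaled to library size. Satb1 itself stood at 3891, 3834 and 3875 CPM in DP WT and at 2497, 2875 and 2456 in DP KO, and at 3515, 3301 and 3002 in CD4 WT against 1482, 1546 and 1470 in CD4 KO, so every KO library was below every WT library of its stage. The summed level of 9 DP markers was 12439 to 13522 CPM in DP WT, 7408 to 7662 in DP KO, 1549 to 1978 in CD4 WT and 2702 to 3293 in CD4 KO. The 5 CD4 markers summed to 1501 to 1602 CPM in DP WT and 1331 to 1387 in DP KO. Their sum was 1935 to 2222 in CD4 WT and 950 to 1024 in CD4 KO, below both DP groups. Its largest part was Cd4 itself, at 1428, 995, 1111 and 657 CPM on average in DP WT, DP KO, CD4 WT and CD4 KO. Zbtb7b, Ccr7 and Cd40lg were higher in CD4 KO (31.5, 37.7 and 17.3 CPM) than in DP WT (3.47, 7.52 and 1.05) or DP KO (2.8, 4.2 and 1.1). They were far below CD4 WT, where they averaged 386, 343 and 91.2 CPM. The log2 changes in CD4 KO against WT were -3.61, -3.18 and -2.40 (edgeR adjusted p 4.82e-06, 5.36e-06 and 1.73e-05). Gata3 stood at 252 CPM in CD4 KO, 111 in DP WT and 353 in DP KO. B cell markers summed to at most 30.1 CPM and myeloid markers to at most 46.1 CPM in any library, and erythroid markers to between 23.4 and 332 CPM. Stroma and epithelium markers summed to 146 to 216 CPM, most of it Pecam1, which averaged 144 to 196 CPM in the groups. Dendritic markers summed to 1.66 to 5.65 CPM in the DP libraries and to 11.7 to 26.5 in the CD4 libraries. Their part in the differences between stages was not tested. NK markers summed to 8.56 to 21 CPM in CD4 WT and to 1.13 to 2.46 in CD4 KO, and gamma-delta and innate-like markers to 19.3 to 43 CPM and 6.92 to 12.5. The gamma-delta genes Trdc and Trgc1 had 0 counts in every group, so the last sum was that of Zbtb16 and Sox13. Trac, from the T lineage list, also had 0 counts in every group. The zeros of Trdc and Trgc1 therefore do not show that gamma-delta cells were absent. Zbtb16 averaged 24.3 CPM in CD4 WT and 1.66 in CD4 KO. Sox13 averaged 10 and 7.99 CPM and did not pass the test (edgeR adjusted p 0.229). DP WT replicates 1 and 2 had Xist at 0.845 and 0.273 CPM, whereas replicate 3 had 476 CPM and all 9 other libraries had 190 to 601 CPM. Ddx3y, a gene of the Y chromosome, stood at 40.4 to 127 CPM in every library, those with high Xist included. In the DP comparison low Xist thus occurred only in WT libraries, and tests that use DP WT were also run with replicate 3 as the only DP WT library. The sources do not say whether replicates were separate animals, so p-values measure the spread between libraries. In bulk RNA, fewer cells of a type and less transcript per cell cannot be told apart.

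Compared per length, as RPKM, the CPM divided by exon length in kilobases, Socs1 was the most abundant member in every group. That length is the annotated exon length of the gene, 11867 bases for Socs2 and 1340 for Socs1, not that of the transcripts present. The order of members and their shares depend on it. Its mean level was 104 RPKM ± 13.9 (SD, n = 3) in DP WT, 41.4 ± 8.32 in DP KO, 45.9 ± 5.96 in CD4 WT and 40.7 ± 4.38 in CD4 KO. In DP WT, Socs4 (12.2 RPKM), Socs7 (9.53), Socs3 (7.4) and Socs6 (6.3) followed, and only Socs4 and Socs7 overlapped among these neighbours. Socs5 (0.564 RPKM), Cish (0.258) and Socs2 (0.0554) formed a low tier there. In CD4 WT, Cish had joined the middle tier at 7.95 RPKM, and the ranges of neighbours overlapped all along the order Socs4, Socs3, Socs7 and Cish. In both KO groups Socs3 ranked next to Socs1, at 14.8 RPKM in DP KO, where it overlapped with Socs4, and at 21.6 RPKM in CD4 KO, where it did not. Socs2 stayed lowest in all 4 groups, at 0.426 RPKM or less on average.

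**Figure D1:**
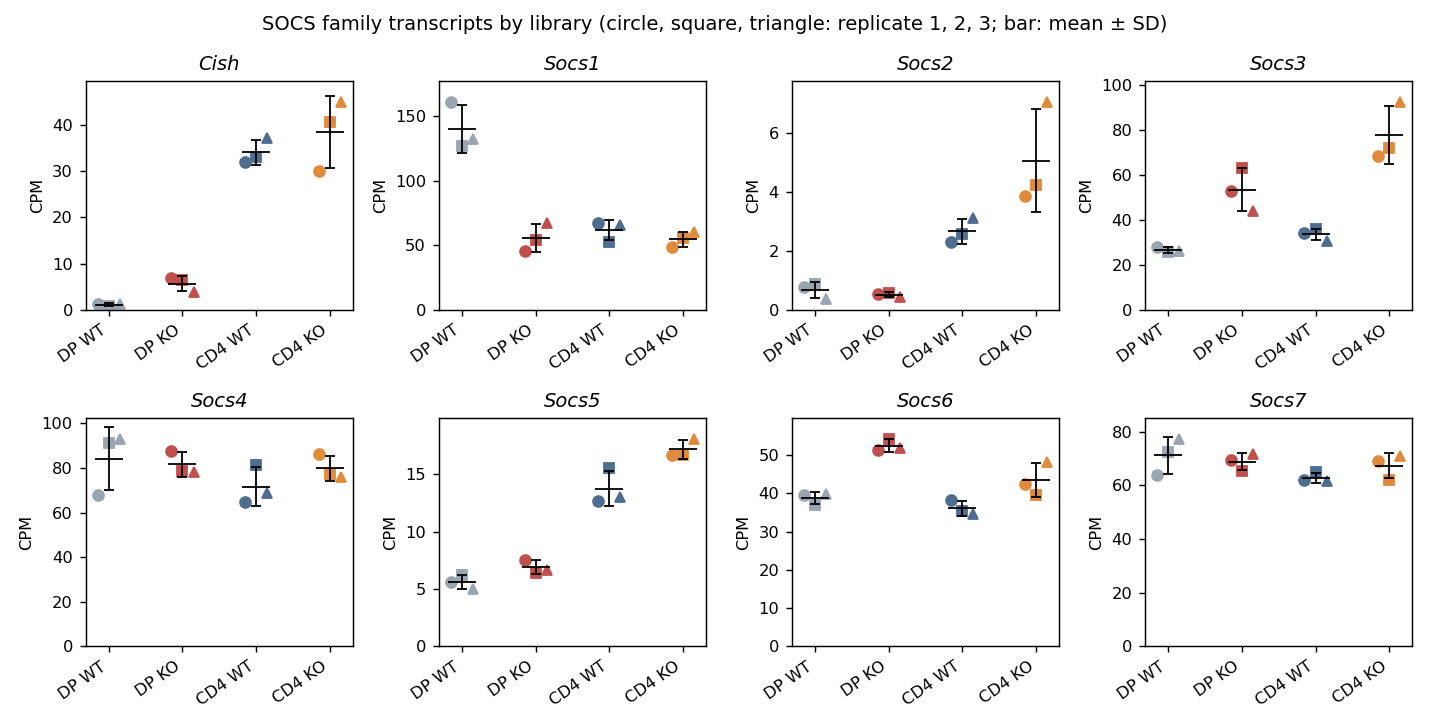
Level of each SOCS family transcript in CPM (vertical axes, linear and starting at 0, with a separate scale per gene) in the 12 libraries by group, with marker shape for the replicate and bars for mean ± SD of 3 libraries. Socs1 was highest in DP WT at 127 to 161 CPM, Cish was at most 1.29 CPM in DP WT and at least 30 CPM in the CD4 libraries, and Socs3 was higher in both KO groups than in their WT groups.

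The make-up of the family followed from these levels. Socs1 gave 78.2, 71.9 and 71.8% of the summed RPKM of the 8 members in the DP WT libraries. It gave 41.5, 45.3 and 53.8% in DP KO, 54.2, 46.1 and 53.3% in CD4 WT, and 38.8, 41.8 and 40% in CD4 KO. The Socs1 share was thus higher in every DP WT library than in any other library. Socs3 gave 5.07 to 5.41% in DP WT, 13.1 to 19.7% in DP KO, 9.35 to 11.7% in CD4 WT and 20.3 to 23% in CD4 KO. The ratio of Socs3 to Socs1 RPKM within a library was 0.0648 to 0.0752 in DP WT and 0.243 to 0.437 in DP KO. It was 0.175 to 0.254 in CD4 WT and 0.484 to 0.576 in CD4 KO, so KO and WT did not overlap at either stage. These shares and ratios are given as descriptions, without a test.

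**Figure D2:**
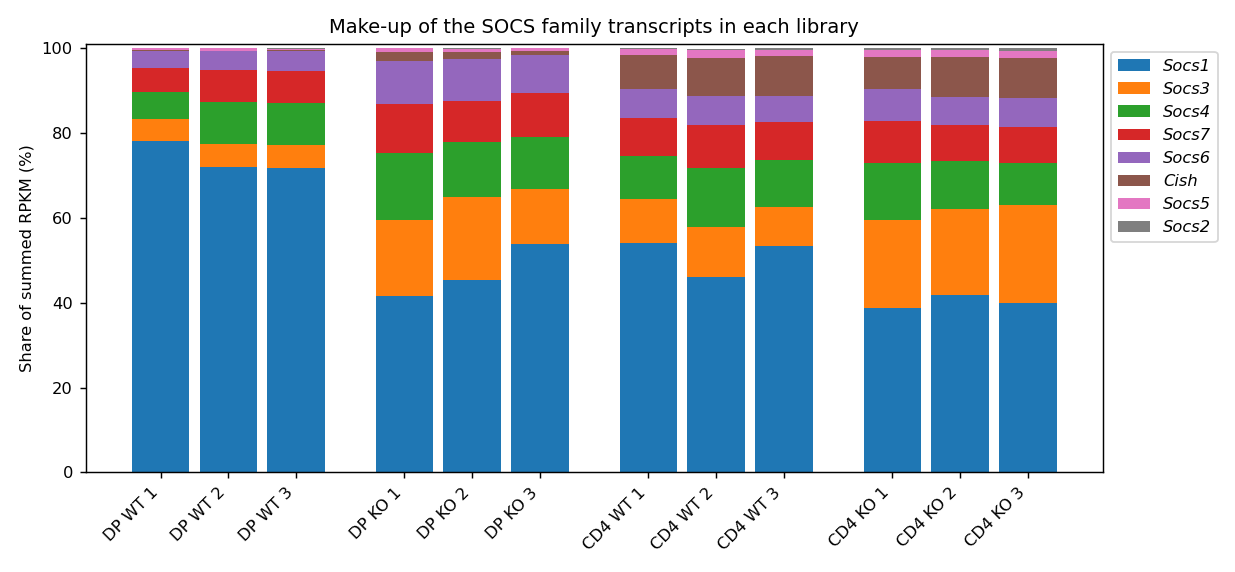
Share of each member in the summed RPKM of the SOCS family (vertical axis, percent, starting at 0) in each of the 12 libraries. Socs1 makes up 71.8 to 78.2% in DP WT and 38.8 to 54.2% elsewhere, and the Cish band is widest in the CD4 libraries.

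Satb1 deletion in DP cells was followed by changes in 4 of 8 members: Cish, Socs3 and Socs6 rose and Socs1 fell. All 8 were tested, in edgeR's quasi-likelihood test with Benjamini-Hochberg adjustment over all genes, and 30.8% of the 16776 genes tested in this comparison were called at an adjusted p under 0.05. The median log2 change was 0.14 over the members and 0.01 over all genes tested. Socs2, Socs4, Socs5 and Socs7 did not pass the test. The part that the lower summed DP markers of DP KO have in these changes was not tested.

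Cish, whose protein binds phosphorylated cytokine receptors and limits STAT5 signalling, had 51, 41 and 29 counts in the DP WT libraries and 412, 345 and 162 in DP KO. In CPM this was 1.17, 0.861 and 1.29 against 6.77, 6.32 and 3.74. Every KO library was above every WT library, and KO replicate 3 was the lowest of its group. The fitted change was a 5.2-fold rise (log2 2.38 ± 0.28 SE, edgeR adjusted p 0.00025), and the same-batch KO to WT differences were 2.54, 2.88 and 1.53 on the log2 scale. DP KO replicate 2 stood apart in genes of mature CD4 cells, with Zbtb7b at 7.13 CPM against 1 and 0.254 in replicates 1 and 3, and 2.41 to 5.32 in DP WT. Without that library the Cish change was 2.30 (edgeR adjusted p 0.000855).

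Socs1, an inhibitor of JAK1, JAK2 and TYK2, stood at 161, 127 and 132 CPM in DP WT and at 45.1, 54 and 67.2 CPM in DP KO. Every KO library was well below the lowest WT library, and the groups did not overlap. The fitted change was a 2.51-fold fall (log2 -1.33 ± 0.14 SE, edgeR adjusted p 0.000131), with same-batch differences of -1.84, -1.23 and -0.97. The DP KO values lay around those of CD4 WT, which were 67, 52.4 and 65.3 CPM.

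Socs3, an inhibitor of JAKs bound to gp130 and related receptors, stood at 28.1, 25.7 and 26.2 CPM in DP WT and at 53, 63.3 and 44 CPM in DP KO. The WT libraries lay within a narrow range and all KO libraries lay above it. The fitted change was a 2.02-fold rise (log2 1.01 ± 0.13 SE, edgeR adjusted p 0.000339), with same-batch differences of 0.91, 1.30 and 0.75.

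Socs6 belongs with Socs7 to the members studied mainly in growth factor and insulin signalling. It stood at 39.6, 36.9 and 39.8 CPM in DP WT and at 51.2, 54.3 and 51.8 CPM in DP KO, without overlap, a 1.36-fold rise (log2 0.45 ± 0.08 SE, edgeR adjusted p 0.00186). With DP WT replicate 3 as the only DP WT library the Socs6 change was 0.40 and was no longer called (edgeR adjusted p 0.0789), while Cish, Socs1 and Socs3 remained called. Socs5, which has been linked to IL-4 receptor signalling, stood at 5.58, 6.17 and 4.95 CPM against 7.56, 6.4 and 6.68. Its groups did not overlap, but the log2 difference of 0.31 ± 0.15 did not pass (edgeR adjusted p 0.155). A stretch of 70 exonic bases of Socs5 overlaps another annotated gene, so its counts are less certain.

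The other 3 members showed no difference beyond the spread in DP cells. Socs2, a regulator of growth hormone signalling, had between 8 and 41 counts in every DP library, and its log2 difference was -0.39 ± 0.40 (edgeR adjusted p 0.501). Socs4 stood at 68, 91.4 and 93.2 CPM in DP WT and 87.8, 78.8 and 78.1 in DP KO, with a log2 difference of -0.03 ± 0.12. Socs7 stood at 63.8, 72.2 and 77.4 CPM against 69.5, 65.4 and 71.5, with a log2 difference of -0.04 ± 0.09.

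In CD4 cells, 4 of 8 members were called and all of them rose in KO: Socs3, Socs2, Socs5 and Socs6. Of the 17316 genes tested in this comparison, 39.5% were called. The median log2 change was 0.22 over the members and 0.00 over all genes. The summed DP markers were higher in CD4 KO than in CD4 WT. The summed CD4 markers, with Zbtb7b, Ccr7 and Cd40lg among them, the summed NK markers and Zbtb16 were lower, although the CD4 marker Gata3 was higher. The part of these markers in the changes was not tested. The number of members called was 1 without CD4 WT replicate 1, 2 without CD4 WT replicate 3 and 2 without CD4 KO replicate 3.

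Socs3 changed most clearly, from 34, 35.8 and 30.8 CPM in CD4 WT to 68.7, 72.2 and 92.7 CPM in CD4 KO. The lowest KO library was well above the highest WT library. The fitted change was a 2.32-fold rise (log2 1.21 ± 0.12 SE, edgeR adjusted p 4.14e-05), with same-batch differences of 1.02, 1.01 and 1.59. Socs2 stood at 2.29, 2.57 and 3.12 CPM in CD4 WT and at 3.86, 4.24 and 7.06 CPM in CD4 KO, where replicate 3 was highest. It rose 1.91-fold (log2 0.93 ± 0.26 SE, edgeR adjusted p 0.0173), and the call was lost without CD4 WT replicate 1 (0.83, adjusted p 0.0704) or replicate 2 (0.91, adjusted p 0.0589).

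Socs5 stood at 12.7, 15.5 and 13 CPM in CD4 WT and at 16.7, 16.7 and 18.1 CPM in CD4 KO, a log2 difference of 0.32 ± 0.11 (edgeR adjusted p 0.0443). Socs6 stood at 38.3, 35.3 and 34.6 CPM against 42.5, 39.6 and 48.2 CPM, a log2 difference of 0.27 ± 0.09 (edgeR adjusted p 0.0402). Neither gene's groups overlapped, yet both calls were lost when most single libraries were left out: for Socs5 every library except CD4 WT replicate 2 (edgeR adjusted p 0.0799 to 0.153), and for Socs6 every library except CD4 KO replicate 2 (0.0527 to 0.119).

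Cish and Socs1, which moved most in DP cells, did not pass the test in CD4 cells. Cish stood at 32, 33.2 and 37.2 CPM in CD4 WT and at 30, 40.7 and 45.1 CPM in CD4 KO, with overlapping groups and a log2 difference of 0.18 ± 0.14 (edgeR adjusted p 0.35). Without CD4 KO replicate 1, the lowest of its group, the difference was 0.34 and was called (adjusted p 0.033). Socs1 stood at 67, 52.4 and 65.3 CPM against 48.2, 55.5 and 59.9, a log2 difference of -0.17 ± 0.11 (edgeR adjusted p 0.254). Socs4 differed by 0.16 ± 0.09 and was called only without CD4 WT replicate 2 (0.26, adjusted p 0.0484), and Socs7 differed by 0.10 ± 0.07.

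**Figure D3:**
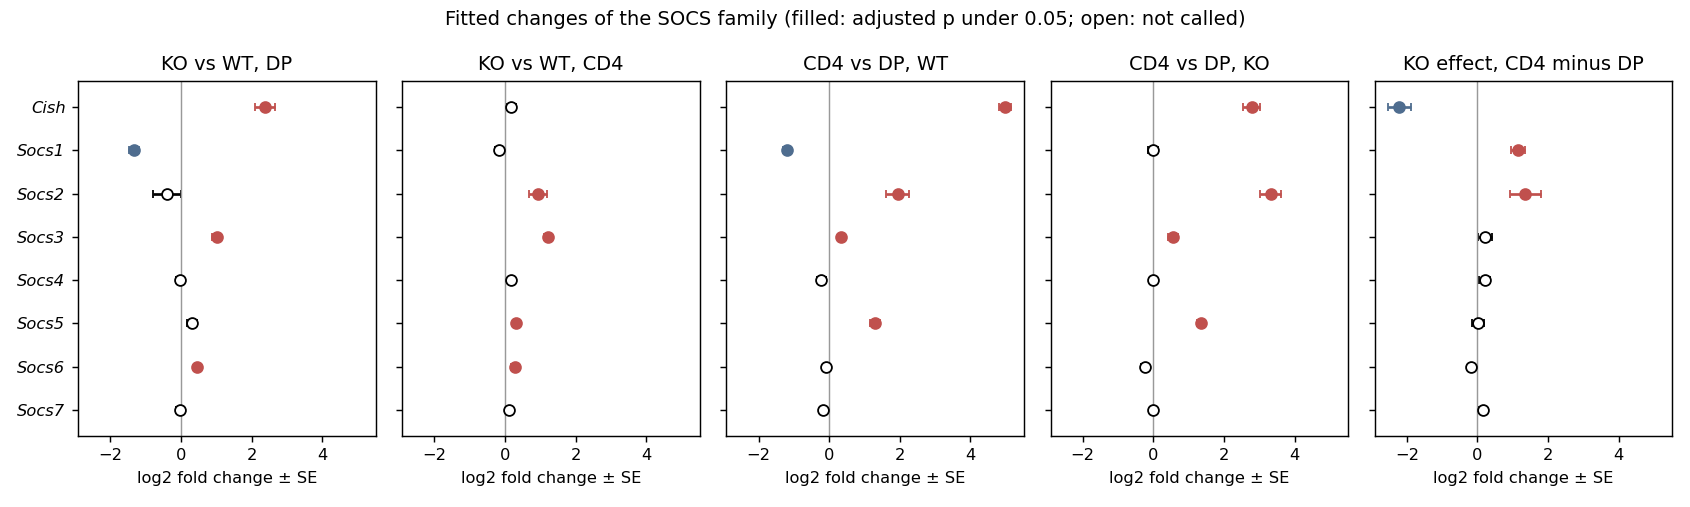
Fitted log2 fold change ± SE (horizontal axes, shared scale) of each SOCS family member in 5 comparisons, filled where the adjusted p was under 0.05, red for higher and blue for lower. Cish and Socs1 are filled in the DP panel and open in the CD4 panel, and Socs3 is filled and to the right in both.

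Between the DP and CD4 stages of WT cells, 5 of 8 members were called: Cish, Socs2, Socs3 and Socs5 were higher in CD4 cells and Socs1 was lower. In this comparison 55% of the 17369 genes tested were called. Cish showed the widest gap of the family, from 1.11 CPM ± 0.223 (SD, n = 3) in DP WT to 34.1 ± 2.77 in CD4 WT, which is 31.5-fold (log2 4.98 ± 0.16 SE, edgeR adjusted p 7.6e-09). Socs2 differed by 1.94 ± 0.32 and Socs5 by 1.29 ± 0.14 on the log2 scale (edgeR adjusted p 0.000523 and 2.88e-05). Socs1 was lower by log2 -1.19 ± 0.12 (edgeR adjusted p 1.2e-05). Socs3 was slightly higher in CD4 cells (0.33 ± 0.09, edgeR adjusted p 0.0101). That call was lost in a single model over all 12 libraries (adjusted p 0.0517) and with DP WT replicate 3 as the only DP WT library (adjusted p 0.0725).

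Socs4, Socs6 and Socs7 did not pass in WT, with log2 differences of -0.23 ± 0.13, -0.10 ± 0.08 and -0.18 ± 0.08. With the batch as a block the Socs4 difference of -0.23 was called (edgeR adjusted p 0.039). Without DP WT replicate 1, Socs4 (-0.37, adjusted p 0.0162) and Socs7 (-0.26, adjusted p 0.0222) were called lower in CD4 cells, and Socs7 was also called with DP WT replicate 3 as the only DP WT library (-0.30, adjusted p 0.043).

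Between the same stages of KO cells, 4 of 8 members were called, all higher in CD4 cells, and 21.7% of the 16910 genes tested were called. With the batch as a block 6420 genes were called in place of 3671. Socs2 rose from 0.509 CPM ± 0.0816 in DP KO to 5.06 ± 1.75 in CD4 KO (SD, n = 3), which is 9.95-fold (log2 3.32 ± 0.30 SE, edgeR adjusted p 0.000204). Cish rose 6.93-fold (log2 2.79 ± 0.24 SE, edgeR adjusted p 0.000154) and Socs5 by log2 1.34 ± 0.11 (edgeR adjusted p 0.000149). Socs1 stood at 55.5 CPM ± 11.1 in DP KO and 54.5 ± 5.88 in CD4 KO, a log2 difference of -0.00 ± 0.14 (edgeR adjusted p 0.991).

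Socs3 was higher in CD4 KO than in DP KO by 0.56 ± 0.15 (edgeR adjusted p 0.0321), a call lost without any of 4 libraries, DP KO replicates 1 and 3 and CD4 KO replicates 2 and 3 (adjusted p 0.0508 to 0.0988). Socs6 was lower by -0.25 ± 0.09 and missed the threshold (edgeR adjusted p 0.0717). With the batch as a block it was called (-0.26, adjusted p 0.0157).

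The difference between the KO effect in CD4 cells and that in DP cells was tested directly over the 12 libraries. It was called for 3 of 8 members, against 27.8% of the 18431 genes tested. For Cish the KO effect was smaller in CD4 than in DP cells by log2 -2.21 ± 0.32 (edgeR adjusted p 0.000162). For Socs1 it was less negative in CD4 cells, by 1.16 ± 0.20 (adjusted p 0.000793). For Socs2 it was larger by 1.36 ± 0.44 (adjusted p 0.0347), a call lost without any 1 of 8 libraries (adjusted p 0.0565 to 0.123) and with DP WT replicate 3 as the only DP WT library (0.42, adjusted p 0.721). The Socs3 effect differed by 0.21 ± 0.19 (adjusted p 0.45), so its rise was not shown to differ between the stages. This test and the comparisons at each stage use the same libraries.

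The genes that act around the SOCS proteins were followed from 8 lists, whose counts are to be read against the 30.8% of all genes called in DP cells and the 39.5% called in CD4 cells. In DP cells 2 of 4 JAK genes rose, Tyk2 by 0.66 ± 0.09 and Jak2 by 0.46 ± 0.08 on the log2 scale (the Jak2 call was lost with DP WT replicate 3 as the only DP WT library, 0.36, adjusted p 0.12), while Jak1 differed by 0.06 ± 0.07 (edgeR adjusted p 0.592). Jak3 differed by 0.37 ± 0.15 (adjusted p 0.0861) and was called with the batch as a block (0.35, adjusted p 0.0375). In CD4 cells 2 of 4 fell, Jak3 by -0.84 ± 0.09 and Jak1 by -0.63 ± 0.07. Exons of Jak1 and Jak3 overlap those of neighbouring genes, so their counts are less certain. Tyk2 differed by -0.18 ± 0.09 (adjusted p 0.13) in CD4 cells and was called with the block (adjusted p 0.0239).

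Among the STAT genes, Stat5b, an activator of Cish, fell at both stages, by -0.48 ± 0.06 in DP cells (from 537 to 381 CPM on average) and by -0.53 ± 0.06 in CD4 cells (from 500 to 346 CPM). Stat5a fell by -0.41 ± 0.06 in DP cells, a call lost with DP WT replicate 3 as the only DP WT library (adjusted p 0.0696). In CD4 cells it fell by -0.22 ± 0.07, a call lost without any 1 library except CD4 WT replicate 3 (adjusted p 0.0571 to 0.117). Stat4, which carries IL-12 signals, rose by 1.49 ± 0.07 in DP cells and by 1.01 ± 0.07 in CD4 cells.

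Of 31 receptor chains that signal through JAKs, 25 were tested in DP cells, of which 11 rose and 5 fell, and 27 in CD4 cells, of which 11 rose and 10 fell. Il7r stood at 8.33 CPM on average in DP WT and 148 in DP KO (log2 4.16 ± 0.17), and at 472 and 478 CPM in CD4 WT and CD4 KO (0.02 ± 0.08). Il2rb, a receptor chain that CISH binds, rose by 1.82 ± 0.26 in DP cells and by 0.52 ± 0.13 in CD4 cells. The CD4 call of Il2rb was lost in a single model over all 12 libraries (adjusted p 0.0569) and without CD4 WT replicate 1 (0.0514) or replicate 2 (0.0532). Il2ra, named after its values were seen, went from 12.5 to 407 CPM in DP cells (5.07 ± 0.28) and from 35.2 to 239 CPM in CD4 cells (2.76 ± 0.17). The SOCS1 target receptor Ifngr1 rose by 2.13 ± 0.07 and 3.08 ± 0.12. Its partner chain Ifngr2 fell by -0.36 ± 0.11 and -1.39 ± 0.08. The common gamma chain gene Il2rg fell by -0.29 ± 0.08 and -0.87 ± 0.07. Ifngr2 and Il2rg were also named after their values were seen, and their calls under the alternatives were not examined. Il12rb2, which SOCS3 can bind, rose by 2.88 ± 0.14 and 1.76 ± 0.08, although much of its exon sequence overlaps another gene. Among the chains that fell at both stages were Il4ra, by -1.60 ± 0.07 and -1.63 ± 0.08 and the gp130 gene Il6st, by -0.50 ± 0.06 and -0.49 ± 0.09. Il6ra rose by 2.27 ± 0.27 in DP cells and fell by -2.44 ± 0.11 in CD4 cells.

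**Figure D4:**
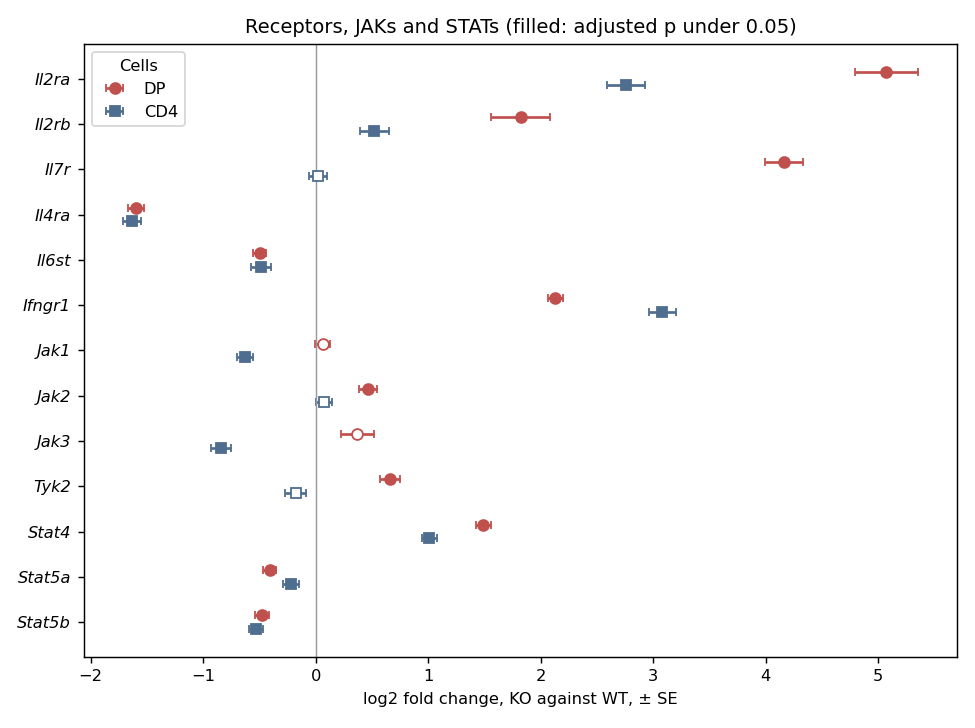
Fitted log2 fold change of KO against WT ± SE (horizontal axis) for 6 of the receptor chains, the JAKs and some STATs, circles for DP and squares for CD4 cells, filled where the adjusted p was under 0.05. Of the genes plotted, Il2ra, Il7r and Ifngr1 lie furthest right in DP cells, Il4ra and Stat5b lie left of 0 at both stages, and Il7r lies at 0 in CD4 cells.

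Of 14 other negative regulators of JAK-STAT signalling, 2 rose and 2 fell in DP cells, a share near the 30.8% of all genes, and 3 rose and 5 fell in CD4 cells, against 39.5% of all genes. Among them Pias3 rose by 1.61 ± 0.09 and 0.81 ± 0.08, and the phosphatase gene Ptpn6 fell by -0.58 ± 0.12 and -0.64 ± 0.13. With DP WT replicate 3 as the only DP WT library the Ptpn6 change in DP cells was -0.34 and was not called (adjusted p 0.209). Of the 6 ligase partners of the SOCS box, Cul5 (0.32 ± 0.08) and Cul2 (0.23 ± 0.08) rose in DP cells, both calls being lost under several alternatives, that of Cul2 also with the batch as a block (adjusted p 0.0681), and none passed edgeR's test in CD4 cells, where 1 had an unadjusted p under 0.05. Of 17 other SOCS box genes tested, 3 rose and 3 fell in DP cells and 4 rose and 5 fell in CD4 cells. Of 19 STAT target genes tested in DP cells 6 rose and 4 fell, and of 20 in CD4 cells 4 rose and 7 fell. Myc rose by 2.02 ± 0.12 and 0.65 ± 0.11, Bcl6 fell by -1.83 ± 0.10 in DP cells, and Bcl2 fell by -2.03 ± 0.10 in CD4 cells. Of 10 cytokine genes only 1 could be tested in DP cells, Ifng, which rose. It was low in both groups, at 0.228 CPM on average in DP WT and 1.77 in DP KO. Of 7 cytokine genes tested in CD4 cells 1 rose and 3 fell. Stat4, Il6ra, Pias3, Cul5 and Bcl6 each share some exonic bases with another annotated gene, so their counts are less certain.

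Across the 12 libraries the members fell into sets that varied together. Pearson's r of log2(CPM + 0.5) was 0.95 between Cish and Socs5 and between Socs2 and Socs5, and 0.86 between Cish and Socs2. Socs3, which was also called higher in CD4 than in DP cells, correlated less with these members (0.57 with Cish, 0.51 with Socs2 and 0.56 with Socs5). Socs1 varied opposite to Cish (r = -0.76) and to Socs3 (r = -0.72), and Socs4 and Socs7 varied together (r = 0.78). The libraries fall into 4 groups and share normalisation, so these values describe the group pattern and are given without a p. Among 9795 genes compared, the pattern of Cish was most like those of Ms4a4b (r = 0.994), H2-Q6 (0.992) and Osbpl5 (0.991). That of Socs1 was most like Rasl11b (0.982), Cdk5r1 (0.975) and Arc (0.963), that of Socs2 like Itgae (0.980), and that of Socs3 like S100a10 (0.976). H2-Q6 has close sequence relatives in the MHC class I region, so its own counts are uncertain.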

How the data were processed

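Poly(A) RNA of 12 libraries was counted per gene by the authors, and whole-number counts were deposited in a table for each cell type. The submitters' processing notes name mm10, Subread 1.0.1, DESeq2 and R 4.1.5. Which tool did which step, how reads were aligned, whether strand was used and how multi-mapping reads were handled is not given in the sources used here. Here the tables were joined by gene symbol, and groups were taken from the sample titles. The descriptions of the CD4 samples name columns ending in DP, whereas the columns of the CD4 table end in CD4; these were matched by title, genotype and replicate number. Each comparison was fitted on its 6 libraries (the interaction on 12) with edgeR 4.0.16 in R 4.3.3, using TMM normalization, filterByExpr and the quasi-likelihood F test. A gene was called at an adjusted p (Benjamini-Hochberg, over all genes tested) under 0.05. The SE was taken as the size of the log2 change over the root of F. CPM used TMM over 12 libraries, and RPKM also used the exon length in the deposited DP table. DESeq2 1.42.0, limma 3.58.1 (voom), other filters and normalization, leaving out libraries, and a batch block were alternatives. The method was tested on simulated data, where the interaction recovered a smaller share of 2-fold changes than the other comparisons; the pass mark was relaxed for it after this was seen.

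Replicate numbers pair the samples because the labels give them as batches. Deviations of same-numbered WT and KO libraries correlated at 0.0195, -0.00176 and 0.176 in DP and at 0.116, 0.159 and 0.343 in CD4 cells, and those of the 2 stages at 0.147 to 0.265 in WT and 0.23 to 0.486 in KO. The best differently numbered KO library gave 0.15, 0.133 and -0.113 in DP and 0.153, 0.178 and -0.226 in CD4 cells. Between genotypes, same-numbered libraries thus matched best only for replicate 3. Between stages they matched best for every replicate. The block was not in the fits reported, and its value is given where it changed a call.

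The members, the lists and the rule for named genes (for each list and KO comparison the 3 called genes with the smallest adjusted p, plus known targets of SOCS proteins) were chosen with earlier results of these data known. Not every gene the rule allows is named, and a result for the STAT list is not reported here.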

Additional observations from a re-analysis of the deposited data

Results flagged for a closer look

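The effect of Satb1 deletion differed between CD4 and DP cells for 3 SOCS family members, tested as the effect in CD4 minus that in DP cells over the 12 libraries (log2 scale, edgeR adjusted p under 0.05). The difference was -2.21 for Cish, 1.16 for Socs1 and 1.36 for Socs2. Satb1 itself fell further in CD4 cells (-0.56).

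The same difference passed for 28 of the 42 pathway genes that the text may name and that were tested, against 27.8% of all genes. Ifngr2 and Il2rg are not among those counted. Most of these genes were chosen for small adjusted p in the KO comparisons, so the count is no evidence about the pathway. Among kinases and STATs it was -0.68 for Jak1, -0.38 for Jak2, -1.20 for Jak3, -0.83 for Tyk2 and -0.47 for Stat4. Among receptor chains it was -2.30 for Il2ra, -1.28 for Il2rb, -4.13 for Il7r, -4.69 for Il6ra, -1.11 for Il12rb2, -0.30 for Ifnar1 and -3.29 for Prlr, and it was positive for Ifngr1 (0.96) and Il10ra (1.69). Among other regulators and SOCS box genes it was -0.79 for Pias3, -0.85 for Ptpn2, -0.44 for Ptprc, -2.90 for Spsb1, -0.64 for Asb13, -2.39 for Asb2 and -0.30 for Cul5. Among STAT targets and cytokines it was 1.79 for Bcl6, 1.55 for Ccnd3, -1.35 for Myc, -1.82 for Bcl2, -2.21 for Ccnd2, -1.47 for Tnfrsf4 and -2.69 for Ifng. Several of these calls were lost under alternatives. With DP WT replicate 3 as the only DP WT library, they were lost for Jak2 (-0.28, adjusted p 0.204), Stat4 (-0.41, 0.0577), Asb13 (-0.59, 0.124), Ifnar1 (-0.32, 0.052), Cul5 (-0.17, 0.384), Ifng (-2.13, 0.353) and Prlr (-4.68, 0.0816). The Cul5 call was also lost without any 1 of 6 libraries (adjusted p 0.052 to 0.0862) and with no low-count filter (0.0703). The Ifng call was also lost without any 1 of 7 libraries (adjusted p 0.05 to 0.0912) and with limma-voom (0.19). The Prlr call was also lost without any 1 of 7 libraries, with -1.27 (adjusted p 0.696) without DP KO replicate 2, and with limma-voom (0.118). Spsb1 is annotated on more than 1 sequence of the assembly, which makes its counts less certain. Exons of Ccnd3 (359 bases) and Tnfrsf4 (16 bases) overlap those of another annotated gene, so their counts are also less certain.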

How the results depend on the processing

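Of 584 values for the 8 members under the alternatives, 541 kept their side of the threshold, 32 lost the call, 11 gained it, and no called value changed sign. Of the 541, 22 differed in sign from the value reported, all of them not called. Cish (2.12 to 2.62), Socs1 (-1.47 to -1.19) and Socs3 (0.89 to 1.15) stayed called in DP cells throughout, as did Socs3 in CD4 cells (1.08 to 1.31). The calls of Socs5 and Socs6 in CD4 cells, and that of Socs2 between stages of the KO effect, were each lost under several alternatives. For Socs5 in CD4 cells the adjusted p was 0.0501 with DESeq2 size factors and 0.0539 with no low-count filter, and for Socs6 it was 0.0515 with limma-voom. With DP WT replicate 3 as the only DP WT library, 1907 genes were called in DP KO against WT in place of 5167, and 3341 in place of 5116 for the interaction, with fewer samples in the fit; the lone library is then assumed to vary like the other groups. With the replicate block, 6420 genes in place of 3671 were called between CD4 and DP cells of KO (3444 higher and 2976 lower, against 2348 and 1323); the cause was not tested. Among the members the block changed no call besides those given for Socs4 and Socs6. Leaving out 1 library at a time gave 1 to 3 members called in CD4 KO against WT. It gave 2212 to 3951 genes between CD4 and DP cells of KO, with 2212 without CD4 KO replicate 1, 2251 without CD4 KO replicate 2 and 2392 without DP KO replicate 1. Depth limits Socs2 in DP cells, with 8 to 41 counts a library; its difference there ranged from -0.65 to 0.51 and was never called.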
